A study of Homo sapiens with 6 samples.

Results

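LBR, the gene of the lamin B receptor, and 9 further genes of the nuclear lamina and inner nuclear membrane were followed in RNA bound to AGO2 in PC3 cells, an established androgen-independent prostate cancer line. The 10 genes are LBR, the lamin genes LMNA, LMNB1 and LMNB2, the LEM domain genes EMD, LEMD3 and TMPO, BANF1, and the bridge genes SUN1 and SUN2. They are 10 of the 18417 genes that could be named from 1 gene symbol on the array. LBR was picked because it was among the largest falls of this same comparison, so its values are given as a description without a test. The other 9 were picked for their place beside it at the nuclear envelope. Only BANF1 had 2 probe sets, and the brighter of them on average was read.

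The series set cells with ectopic miR-205 (3 arrays) against cells with a negative control mimic (3 arrays), and its title gives the aim of finding miR-205 targets. All 6 samples are AGO2 immunoprecipitates made with the rat antibody 11A9, and the design calls the 3 samples of a group biological replicates. No input RNA was analysed here, so a transcript that became less abundant and one that was bound less by AGO2 give the same reading. Fewer cells that carry a transcript and less of it per cell cannot be told apart either.

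The nuclear lamina is a meshwork of A-type and B-type lamin filaments under the inner nuclear membrane. LBR spans that membrane, holds B-type lamins and heterochromatin at the nuclear rim, and also carries a sterol reductase activity used in cholesterol synthesis. LEM domain proteins bind the small DNA-bridging protein encoded by BANF1, and SUN proteins join with nesprins of the outer membrane to connect the lamina to the cytoskeleton. MicroRNAs guide AGO2 to transcripts mainly through the seed at their 5′ end. The mature miR-205-5p is shown because it is the RNA whose ectopic expression separates the groups. Its sequence in RefSeq lies at chr1:209432166-209432187 on the plus strand of GRCh38.p14, with the seed, bases 2 to 8, in capitals.
hsa-miR-205-5p: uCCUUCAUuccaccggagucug
Among 2370 mature human microRNA names in that table, 1 carried this seed, miR-205-5p itself. A transcript would pair with the whole seed through the letters AUGAAGG. Transcript sequences were not analysed here, so no such site was looked for in the 10 genes.

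Values are log2 intensities. Array medians lay between 6.82 and 6.86. The 95th percentile of the means of 341 olfactory receptor genes was 6.04, and this was taken as the level of a dim probe set. All 10 lamina genes had means above it. The keratin genes KRT8, KRT18 and KRT19, marks of an epithelial line, averaged between 11.62 and 11.65. EPCAM and CDH1, of the same marker list, averaged 7.97 and 7.24. Of these 5 epithelial markers 4 rose with miR-205, EPCAM by 2.29, CDH1 by 1.91, KRT8 by 0.89 and KRT18 by 0.55 on the log2 scale (limma adjusted p of 0.000274 or less for each), while KRT19 had a difference of -0.03 (0.750). The part of these marker changes in the lamina results was not tested. KLK3 (6.07) and KLK2 (6.39), made by androgen-responsive prostate cells, were near the dim level. Of 5 measured leukocyte markers, 2 were above it, CD68 at 9.80 and CD14 at 6.33, while the defining gene PTPRC was at 3.61. Of 6 fibroblast markers 4 were above it, COL1A1 (8.99), COL3A1 (6.94), COL1A2 (6.64) and PDGFRB (6.32), while DCN was at 3.09. Negative control replicate 2 stood apart from the other control arrays, at -18.14 on the second principal component (13.1% of the variance) against 7.68 and 5.41. On the first component (69.5%) it was at 11.23 against 22.23 and 23.79, with the miR-205 arrays between -19.62 and -18.32. A set of 10 cytokine and immediate-early genes was listed for its response on negative control replicate 2, so its averages only describe that response. It averaged between 11.02 and 11.13 on the miR-205 arrays. It averaged 10.49 on that control array, against 8.11 and 8.24 on the other control arrays. For the lamina genes, results without that array are therefore given where they differ.

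LBR stood at 8.70, 8.52 and 8.57 on the miR-205 arrays, against 10.24, 10.21 and 10.25 on the negative control arrays. The groups were far apart, with a gap of 1.51 between the highest miR-205 array and the lowest control array, while the arrays spanned 0.19 within the miR-205 group and 0.04 within the control group. The group means were 8.60 ± 0.10 with miR-205 and 10.23 ± 0.02 with the control (SD, n = 3 each), a log2 difference of -1.63 ± 0.07 (SE), or 3.10-fold less signal. With each array left out in turn the difference lay between -1.69 and -1.59. Negative control replicate 2 was no exception for this gene, although it stood apart for the cytokine genes.

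**Figure D1:**
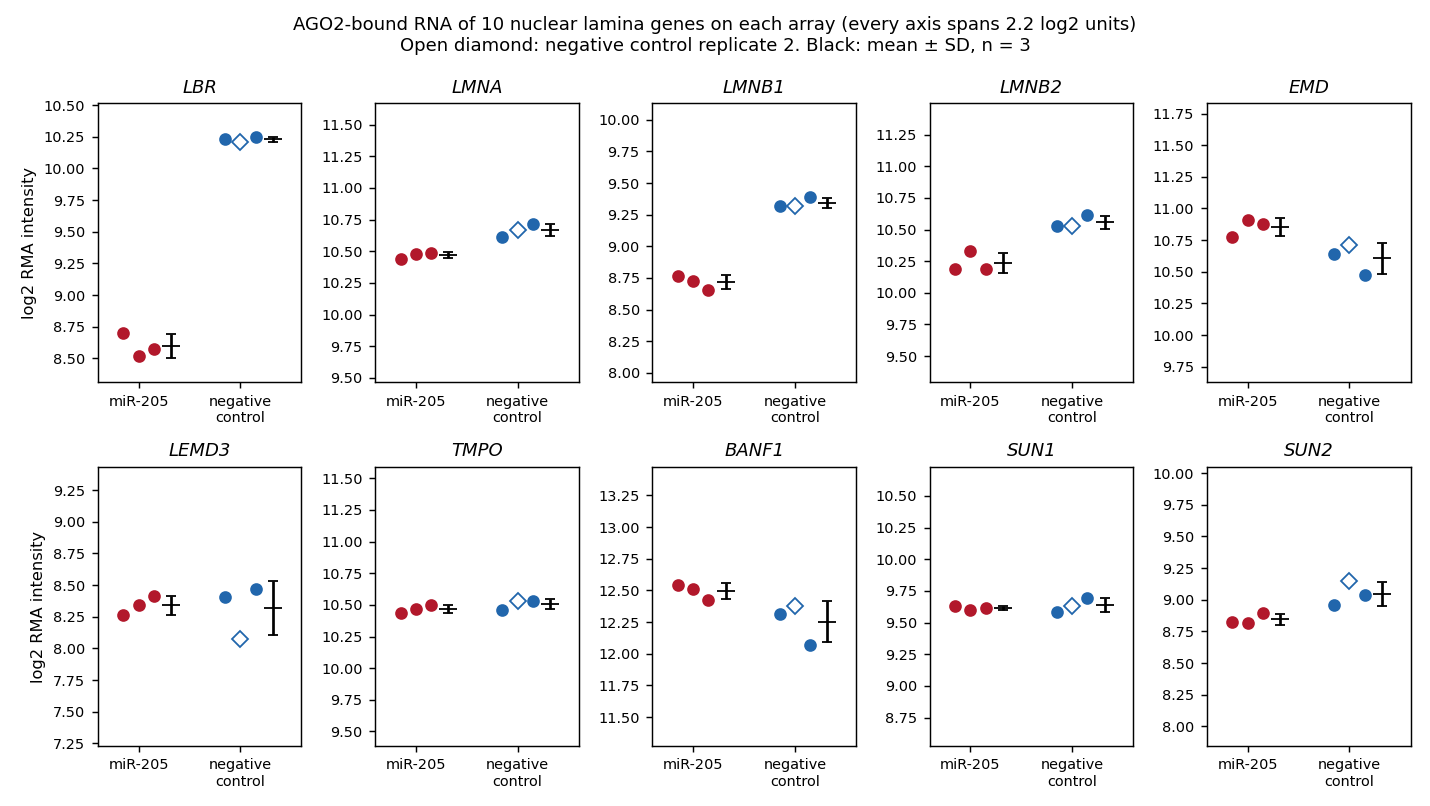
Log2 intensity of each of the 10 lamina genes on the 3 miR-205 arrays (red, left) and the 3 negative control arrays (blue, right), with mean ± SD in black and negative control replicate 2 as an open diamond. Every vertical axis spans the same height, so the distance between the LBR groups (8.60 against 10.23) can be set beside the smaller distance of LMNB1 (8.72 against 9.34) and the overlap of LEMD3, TMPO and SUN1.

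The 3 lamin genes were all lower among AGO2-bound transcripts after miR-205 transfection, LMNB1 most. Among the 9 genes beside LBR, 3 fell and 1 rose at an adjusted p under 0.05 by limma, and 5 did not pass. Over all 18417 genes, 14.0% fell and 12.6% rose at that threshold, 26.6% in all. The 9 genes had a median log2 difference of -0.04, against -0.02 over all genes. As a group they therefore sat close to the rest of the array, and the count of 4 called genes is too small to set them apart from that share.

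LMNB1, a B-type lamin partner of LBR, stood at 8.76, 8.73 and 8.66 with miR-205, against 9.32, 9.32 and 9.39 with the control. All miR-205 arrays were below all control arrays, with a gap of 0.55. The log2 difference was -0.63 ± 0.06 (SE, n = 3 per group, limma adjusted p = 0.000188), which is 1.54-fold less signal. The call was kept under each of 13 alternative settings, with adjusted p between 1.56e-05 and 0.00179.

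LMNB2, the other B-type lamin gene, stood at 10.19, 10.33 and 10.19 with miR-205, against 10.53, 10.53 and 10.61 with the control. The arrays again did not overlap. It fell by 0.32 ± 0.06 on the log2 scale (SE, n = 3 per group, limma adjusted p = 0.00706), and this call too was kept under the 13 settings, at 0.00127 to 0.0323.

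LMNA encodes the A-type lamins A and C, which the single probe set does not separate. It stood at 10.44, 10.48 and 10.48 with miR-205, against 10.62, 10.67 and 10.71 with the control, and fell by 0.20 ± 0.06 on the log2 scale (SE, n = 3 per group, limma adjusted p = 0.0352). The arrays did not overlap, but the gap was only 0.13. The call was lost when any array other than negative control replicate 1 was left out (adjusted p = 0.0535 to 0.112), when all probe sets were tested (0.0651) and with the replicate number as a block (0.0573), while the difference stayed between -0.22 and -0.17.

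The sizes of these falls were compared within arrays. LMNB1 fell by 0.43 more than LMNA and by 0.31 more than LMNB2, counted on the log2 scale. In both pairs the 3 miR-205 arrays were separate from the 3 control arrays, with p = 0.1 in a two-sided exact permutation test, the lowest value that test can give with 3 against 3 arrays (0.133 after adjustment over 4 pairs).

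Among the LEM domain genes and BANF1, EMD rose and the other 3 did not pass. EMD encodes emerin, an inner membrane protein that binds lamins. It stood at 10.77, 10.91 and 10.88 with miR-205, against 10.64, 10.71 and 10.47 with the control, so the groups were separated by 0.06 only. EMD rose by 0.24 ± 0.08 on the log2 scale (SE, n = 3 per group, limma adjusted p = 0.0455). Without negative control replicate 2 the rise was 0.30 (adjusted p = 0.0205), and without any 1 of the other 5 arrays the call was lost (0.0591 to 0.148). It was also lost with arrays centred on their medians (0.0513), with all probe sets tested (0.0953) and with the replicate number as a block (0.0547).

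BANF1, the barrier to autointegration factor that ties LEM proteins to DNA, had 2 probe sets, which disagreed. The brighter one stood at 12.54, 12.51 and 12.42 with miR-205, against 12.31, 12.38 and 12.07 with the control, a log2 difference of 0.24 with a 95% interval of 0.04 to 0.44 (limma adjusted p = 0.0726). The groups did not overlap, and negative control replicate 3 was the lowest array. Without that array the difference was 0.15 (adjusted p = 0.182), and with both probe sets averaged it was 0.14 (0.199). Without negative control replicate 2 the difference was 0.30 and passed (adjusted p = 0.0284), and it also passed with the replicate number as a block (0.0452), among genes above the dim level only (0.0494) and with a robust variance with a trend (0.0252). The dimmer probe set stood at 10.28, 10.29 and 10.31 with miR-205, against 10.38, 10.23 and 10.12 with the control, where the groups overlapped and the difference was 0.05.

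TMPO encodes the lamina-associated polypeptides 2, some of which bind B-type lamins. It stood at 10.44, 10.47 and 10.50 with miR-205, against 10.46, 10.53 and 10.53 with the control. The groups overlapped, and the log2 difference of -0.04 had a 95% interval of -0.17 to 0.09 (limma adjusted p = 0.657). That interval does not reach the fall measured for LMNB1.

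LEMD3 encodes MAN1, an inner membrane protein that restrains SMAD signalling. It stood at 8.27, 8.34 and 8.42 with miR-205, against 8.41, 8.08 and 8.47 with the control. Negative control replicate 2 was the low array. The log2 difference was 0.02, with a 95% interval of -0.21 to 0.26 (limma adjusted p = 0.903). Without that array it was -0.10 (adjusted p = 0.334), and without miR-205 replicate 3 it was -0.02 (0.949), so no direction can be given. EMD and LEMD3 did not differ in their change beyond the spread of the arrays (difference 0.22 ± 0.19 SE, two-sided exact permutation p = 0.4). Negative control replicate 2 was the only control array above the miR-205 arrays. Its EMD minus LEMD3 value, centred over the 6 arrays, was 0.24, against -0.17 and -0.40 on the other control arrays. The miR-205 arrays lay between 0.06 and 0.17. Without negative control replicate 2 EMD changed by 0.30 and LEMD3 by -0.10, and the pair was not tested there.

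SUN1 and SUN2 encode the inner membrane parts of the bridge to the cytoskeleton. SUN2 stood at 8.82, 8.82 and 8.89 with miR-205, against 8.96, 9.15 and 9.04 with the control. The groups did not overlap, with negative control replicate 2 the highest array, and the log2 difference of -0.20 missed the threshold (95% interval -0.36 to -0.05, limma adjusted p = 0.0558). Without negative control replicate 1 it passed at -0.25 (adjusted p = 0.0408), and without negative control replicate 2 it was -0.15 (0.118). It passed with repeated quantile normalization (0.0378), among genes above the dim level only (0.0349) and with a robust variance with a trend (0.0409).

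SUN1 stood at 9.63, 9.60 and 9.62 with miR-205, against 9.59, 9.63 and 9.70 with the control. The groups overlapped, and the log2 difference was -0.02, with a 95% interval of -0.15 to 0.11 (limma adjusted p = 0.858), turning to 0.01 without negative control replicate 3. The change of SUN2 was 0.18 below that of SUN1 on the log2 scale, with a two-sided exact permutation p of 0.1, the smallest possible (0.133 after adjustment over 4 pairs).

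**Figure D2:**
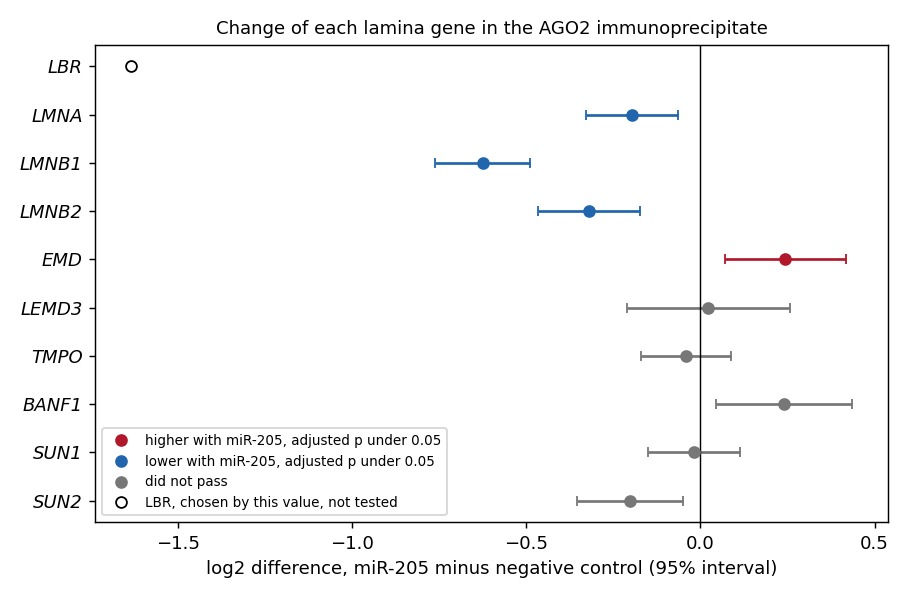
Log2 difference, miR-205 minus negative control, of each of the 10 lamina genes, with 95% intervals from limma for the 9 that were tested (n = 3 arrays per group). LBR (-1.63, open circle, chosen by this value) lies outside the range of the others, which runs from -0.63 in LMNB1 to 0.24 in EMD.

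Of the 9 genes beside LBR, 4 had every miR-205 array below every control array (LMNA, LMNB1, LMNB2 and SUN2) and 2 had every miR-205 array above (EMD and BANF1). Such separation was found for 42.2% of all genes, 22.2% lower and 19.9% higher with miR-205. The 5 genes whose pattern over the 6 arrays was nearest to that of LBR were BICC1, GLIS3, NT5E, GXYLT1 and JADE3. Likeness was measured as the root mean square difference of log2 values after each gene was centred on its mean, among 13589 genes above the dim level. This distance was 0.07 for BICC1, GLIS3 and NT5E and 0.09 for GXYLT1 and JADE3. Their log2 differences lay between -1.72 and -1.54, so the distance mostly restates a fall of the size by which LBR was picked. Among the lamina genes LMNB1 was nearest, at 0.51, and EMD farthest, at 0.95.

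**Figure D3:**
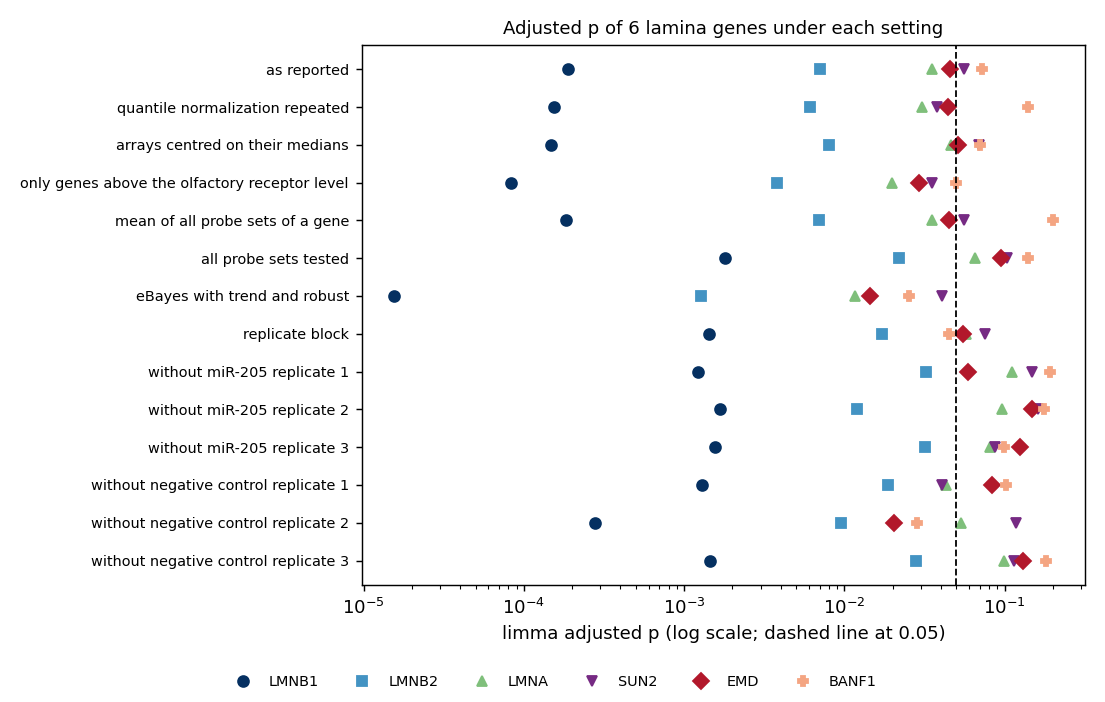
Limma adjusted p (log scale, dashed line at 0.05) of the 6 lamina genes that came closest to the threshold or passed it, as reported and under 13 alternative settings. LMNB1 and LMNB2 stay left of the line in every row, while LMNA, EMD, SUN2 and BANF1 lie on both sides of it.

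Other genes that work with LBR and the lamins were read from lists of related nuclear envelope genes. Of the HP1 genes, whose proteins bind methylated histone H3 and include partners of LBR, 1 of 3 fell and 0 rose, where 14.0% and 12.6% of all genes did. CBX5 (HP1 alpha) stood at 11.13, 11.12 and 11.13 on the miR-205 arrays, against 11.79, 11.71 and 11.85 on the control arrays. The groups did not overlap, and CBX5 fell by 0.66 ± 0.06 (log2, SE, n = 3 per group, limma adjusted p = 0.000149). CBX1 had a log2 difference of -0.06 (adjusted p = 0.519) and CBX3 one of -0.08 (0.349).

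Of 7 nesprin and other SUN genes, 2 fell and 0 rose, where 14.0% of all genes fell and 12.6% rose. SYNE2, which encodes nesprin-2, a giant outer membrane partner of the SUN proteins, stood at 7.47, 7.41 and 7.64 with miR-205, against 8.13, 8.17 and 8.31 with the control. It fell by 0.70 ± 0.08 (log2, SE, n = 3 per group, limma adjusted p = 0.000476). SYNE1 (nesprin-1) stood at 6.54, 6.45 and 6.46 with miR-205, against 6.89, 6.83 and 7.07 with the control, and fell by 0.45 (adjusted p = 0.00304). Neither gene's groups overlapped. The list median was -0.12, -0.26 over the genes above the dim level, and 0.01 without negative control replicate 2.

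The median was -0.11 among 16 other inner membrane and torsin-related genes, of which 3 fell and 2 rose, against 14.0% and 12.6% of all genes. The median was -0.02 when all probe sets of a gene were averaged, and the number that fell was 2 to 6 over the settings, the most with a robust variance with a trend. ANKLE2, a LEM protein that acts on BANF1 after mitosis, had a log2 difference of -0.29 (limma adjusted p = 0.00608). TMEM43, an emerin-binding membrane protein, went the other way, at 11.67, 11.78 and 11.69 with miR-205, against 11.21, 11.17 and 11.18 with the control. It rose by 0.53 ± 0.06 (log2, SE, n = 3 per group, adjusted p = 0.000396), and PRR14, which tethers heterochromatin to the lamina, rose by 0.29 (0.00541). The other falls were less stable: LEMD2 (-0.31, adjusted p = 0.0336) lost its call when any array other than negative control replicate 2 was left out (up to 0.116), and TOR1AIP2 (-0.25, 0.00935) turned to 0.07 when all its probe sets were averaged. Both were named after their values were seen.

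Of 4 measured genes of lamin processing, 2 rose and 0 fell (12.6% and 14.0% over all genes). ZMPSTE24, the protease that trims prelamin A, stood at 11.59, 11.57 and 11.57 with miR-205, against 11.25 on each of the 3 control arrays, and rose by 0.33 ± 0.05 (log2, SE, n = 3 per group, limma adjusted p = 0.00249). Its groups were separate, in the opposite direction to LMNA. FNTA, a subunit of protein farnesyltransferase, rose by 0.24 (adjusted p = 0.0313), but its call was lost when any 1 array was left out (0.0533 to 0.122).

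Late sterol enzymes were read because LBR shares its reductase step with TM7SF2. Of 7 measured, 2 rose and 0 fell, beside 12.6% and 14.0% of all genes, with a median of 0.11. With a robust variance with a trend 1 also fell. TM7SF2, the other sterol C14 reductase gene, stood at 8.97, 8.94 and 8.99 with miR-205, against 8.60, 8.67 and 8.63 with the control. The groups did not overlap, and TM7SF2 rose by 0.33 ± 0.06 (log2, SE, n = 3 per group, limma adjusted p = 0.0030), so that the reductase genes LBR and TM7SF2 had differences of opposite sign. EBP, an isomerase of the same pathway, rose by 0.39 (adjusted p = 0.00391). DHCR7, another late reductase, had a difference of 0.14 that did not pass (0.179).

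Of 8 kinase genes whose proteins act on the lamina, on LBR or on BANF1 or belong to those families, 3 rose and 2 fell (12.6% and 14.0% over all genes). PRKCA, a protein kinase C isoform, fell by 0.74 (limma adjusted p = 0.000146), and the mitotic kinase gene PLK1 fell by 0.37 (0.00487). VRK1, which phosphorylates the BANF1 protein, rose by 0.51 (0.00481). CDK1, the mitotic kinase of lamins, had a difference of -0.03 (0.793), and SRPK1, which phosphorylates LBR, one of -0.08 (0.348).

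Nucleoporin genes, which encode the pore complexes set into the same envelope, were divided. Of 28 measured, 6 fell and 5 rose, where 26.6% of all genes were called in either direction, with a median of -0.05 (-0.09 without miR-205 replicate 1 and -0.02 without negative control replicate 3). NUP50, a mobile pore component, lay between 7.86 and 8.04 on the miR-205 arrays, against 8.48 to 8.66 on the control arrays, and fell by 0.64 (limma adjusted p = 0.00057). The membrane nucleoporin gene NUP210 fell by 0.42 (0.00377) and NUP98 by 0.37 (0.00289). The number of nucleoporin genes that rose was 2 without miR-205 replicate 1, 2 or 3 and 4 to 6 without another array, and 10 fell with a robust variance with a trend.

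LMNB1 is often read as a marker of dividing cells, so 12 proliferation genes were set beside it. Of these, 5 fell and 3 rose, against 14.0% and 12.6% of all genes, with a median of -0.11. MKI67 fell by 0.77 (limma adjusted p = 0.000231), BUB1 by 0.69 (0.000356) and TOP2A by 0.51 (0.000961), while RRM2 rose by 0.53 (0.00106), PCNA by 0.42 (0.00614) and TYMS by 0.42 (0.00972). The 3 that rose were named after their values were seen. The replication genes MCM2 (-0.07, adjusted p = 0.467) and MCM5 (0.03, 0.838) did not pass. The part of these genes in the fall of LMNB1 was not tested.

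**Figure D4:**
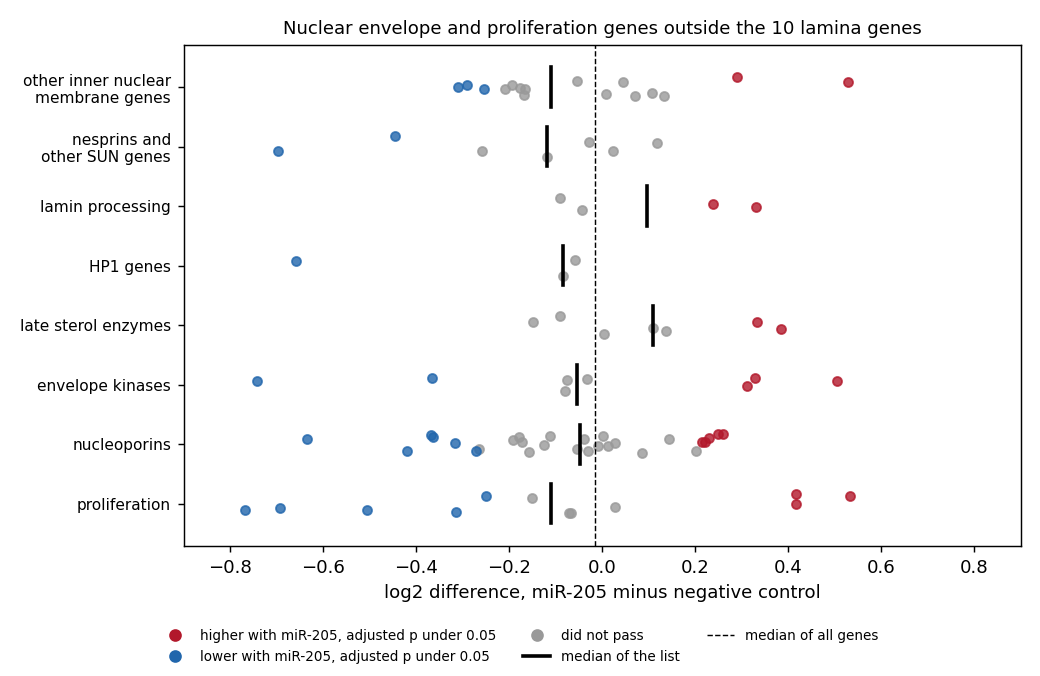
Log2 difference, miR-205 minus negative control, of every measured gene of 7 nuclear envelope lists and the proliferation list, with list medians as black bars and the median of all genes (-0.02) as a dashed line. Falls (blue) and rises (red) that passed the threshold occur together in 4 of the 8 lists; the nesprin and HP1 lists hold falls only and the lamin processing and sterol lists rises only.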

How the data were processed

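AGO2-bound RNA of 6 samples was hybridised to Affymetrix gene arrays. Per the submitters' processing notes, the authors summarised the arrays with RMA (Affymetrix Expression Console 1.1.2). The deposited log2 intensities were used unchanged. A genome build was not given in the sources used here. Of 33297 probe sets, 21214 were in the platform annotation, 19460 with 1 gene symbol and 1754 with several, and only the first kind was named. This left 18417 genes, with 0 columns of values unused. The fit used limma 3.58.1 under R 4.3.3, with lmFit, eBayes and no term but the group. Its two-sided p-values were adjusted by Benjamini-Hochberg over the 18417 genes and called under 0.05. The steps were tested on simulated data with independent normal values for each gene. No simulated array stood apart as negative control replicate 2 does here. The number of arrays limits the precision.

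The lamina genes and all lists were chosen with earlier results of these data known. From each list up to 3 genes with the smallest p past the threshold were named. The other genes named are marked, did not pass, or stand beside a named one for their role. The 4 pair comparisons were chosen after values were seen. Of the listed symbols, 1 was read under its newer name. Whether replicate numbers pair the samples could not be settled. Same-numbered arrays had correlations of deviations of 0.06, 0.09 and 0.01, and differently numbered ones lay between -0.09 and 0.05. Alternatives covered 2 normalizations, a filter on dim genes, probe set rules, a variance model, the replicate block and leaving out each array.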

Additional observations from a re-analysis of the deposited data

How the results depend on the processing

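Over 13 alternative settings, the log2 difference of LBR moved by less than the larger SD of its groups, and LMNB1 and LMNB2 kept direction and call. For LBR, with 1 probe set, the dim gene filter, the probe set rules, the variance model and the replicate block cannot change the difference, which stayed at -1.63. Of the 9 tested lamina genes, 4 passed as reported (4906 of all 18417 genes). With all probe sets tested 2 passed (4837 of 33297 probe sets), and with 1 array left out 2 to 4 passed (3365 to 5549 of 18417 genes). The count was 2 without miR-205 replicate 1, 2 or 3 or negative control replicate 3, and LMNB1 and LMNB2 were the ones that passed. It was 3 with arrays centred on their medians (4794 of 18417 genes). More passed under other settings. The count was 5 with repeated quantile normalization (5065 of 18417 genes). It was 6 among genes above the dim level only (5269 of 13590) and 6 with a robust variance with a trend (5465 of 18417). With the replicate number as a block, 3 of the 9 genes passed and 4627 of all genes, against 4906. The calls of LMNA and EMD ended there, and BANF1 passed. Whether the numbers pair the samples is not known, so the calls of LMNA and EMD depend on this choice. Differences near 0 changed sign when 1 array was left out: LEMD3 lay between -0.10 and 0.10 and SUN1 between -0.0436 and 0.0113. The cause was not tested. The number called over the whole array (4627 to 5465 with all arrays in the fit) stayed within 1.5 times the reported one. Its totals were unlike, however, so the share called moved more than the number. They were 18417 genes as reported, 33297 probe sets with all probe sets tested and 13590 genes with the dim gene filter. The summed count of the 7 related lists (28 as reported, 22 to 37) also stayed within 1.5 times, but not its split. With a robust variance with a trend 22 of those genes fell, against 14 as reported.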
